A study of Mus musculus with 24 samples.

Results

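Thyroid hormone metabolism and response was followed through 8 genes of the 33364 listed in the count tables: the deiodinases Dio2 and Dio3, the transporter Slco1c1, the binding protein Crym, the receptors Thra and Thrb, and the hormone targets Hr and Klf9. The set was assembled because Dio3 marked the medial prefrontal cortex (mPFC) over the anterior cingulate cortex (ACC), and the other 7 genes were added by their known roles. The mPFC-to-ACC difference in sham mice is therefore what chose the set and is described here without a test. Dio3 was not tested in the comparisons of the mPFC with the ACC. The region by SNI interaction, which was tested for all 8 genes, draws on that sham difference. SNI against sham, also tested for all 8 genes, uses the sham libraries by which Dio3 was chosen.

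RNA was sequenced from tissue punches of C57BL/6 mice that the labels give as 3 months old. Females and males had either spared nerve injury (SNI), a model of neuropathic pain in which part of the sciatic nerve's branches are cut, or a sham operation, and were taken 2 weeks later. Each of the 8 groups (2 sexes, 2 regions, SNI or sham) had 3 libraries, 24 in all, each made from pooled tissue of several mice, so that p-values measure the spread between pools. In a bulk library, fewer cells of a type and less RNA per cell cannot be told apart.

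The thyroid secretes mostly thyroxine, a prohormone, which reaches the brain through transporters such as the one encoded by Slco1c1 in brain capillaries and astrocytes. Dio2, found mainly in astrocytes within the cortex, converts thyroxine into the active hormone triiodothyronine, and Dio3, found in neurons, inactivates both hormones. Inside cells Crym binds triiodothyronine. The receptors Thra and Thrb are transcription factors that repress or activate genes depending on whether hormone is bound, with retinoid X receptors as partners, and Klf9 and Hr are well-known targets in brain, Hr being itself a corepressor of the receptors.

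The deiodinase genes lie far apart on chromosome 12 (GRCm38), Dio2 at chr12:90724552-90738438 on the minus strand and Dio3 at chr12:110279068-110281097 on the plus strand. Their upstream sequences are printed because these enzymes have opposite roles and only Dio3 chose the set. The sequences are from RefSeq (GRCm38.p6), 5′ to 3′ on the gene's strand, with motifs in capitals: a cAMP response element (TGACGTCA) and a TATA box (TATAAA) for Dio2, and GC boxes (GGGCGG on the other strand), together with the CCAAT and TATA boxes, for Dio3. RefSeq starts Dio2 at position 90739038 and Dio3 at position 110279230, while the gene positions above are those of GENCODE, in which Dio2 starts at 90738438 and Dio3 at 110279068. The Dio2 piece is the 250 bases before its RefSeq start (chr12:90739039-90739288), and the Dio3 pieces are a distal stretch (chr12:110278980-110279067) and the CCAAT and TATA boxes (chr12:110279182-110279204), which lie before the RefSeq start and inside the GENCODE gene.
Dio2: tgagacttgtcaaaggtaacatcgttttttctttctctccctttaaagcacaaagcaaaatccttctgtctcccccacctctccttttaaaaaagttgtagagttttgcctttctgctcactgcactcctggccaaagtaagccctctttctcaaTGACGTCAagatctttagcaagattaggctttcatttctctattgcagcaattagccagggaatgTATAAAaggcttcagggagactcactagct
Dio3, distal: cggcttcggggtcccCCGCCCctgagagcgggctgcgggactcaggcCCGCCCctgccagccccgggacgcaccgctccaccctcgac
Dio3, boxes: CCAATtcaagctttgacTATAAA

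Searched on both strands in the 250 bases before each RefSeq start, TGACGTCA occurred in 1.55% of 32851 windows and TATAAA in 12.4%. GGGCGG occurred in 32.7%, with 4 matches in the Dio3 window and none in that of Dio2, and CCAAT in 33.8%. The receptor binding motif AGGTCA was found in 14.0% of windows. Of the 5 members with a sequence (Dio2, Dio3, Slco1c1, Klf9 and Thrb), it was in 1 of the windows of Thrb and in none of the others. A match to letters is a description of the sequence and not evidence of binding.

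The libraries held 23853845 to 32864391 reads counted on genes, and all 8 genes passed the low-count filter in every comparison. The floor of 3 counts was at most 0.126 CPM (reads of a gene relative to the reads counted in its library, scaled with TMM factors over all libraries), below the lowest value of any member. Slc17a7, a marker of cortical excitatory neurons, ran from 1443 to 1980 CPM over the libraries, and Rax, a marker of tanycytes, which express Dio2 at the floor of the third ventricle, from 0 to 0.167 CPM. Some libraries stood apart: female sham ACC replicate 1 held 989 CPM summed over 6 choroid plexus markers and male SNI mPFC replicate 2 held 84.8, against at most 12 in the others. Oligodendrocyte markers summed to 1129 CPM in female SNI mPFC replicate 1 and to 2028 or more in the others. The libraries also differed in base composition. The median log2 level of GC-rich genes minus that of GC-poor genes (above 54.5% and below 44.6% GC, each library against its region's mean) ran from −0.20 in female sham ACC replicate 2 to 0.31 in male sham ACC replicate 3.

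**Figure D1:**
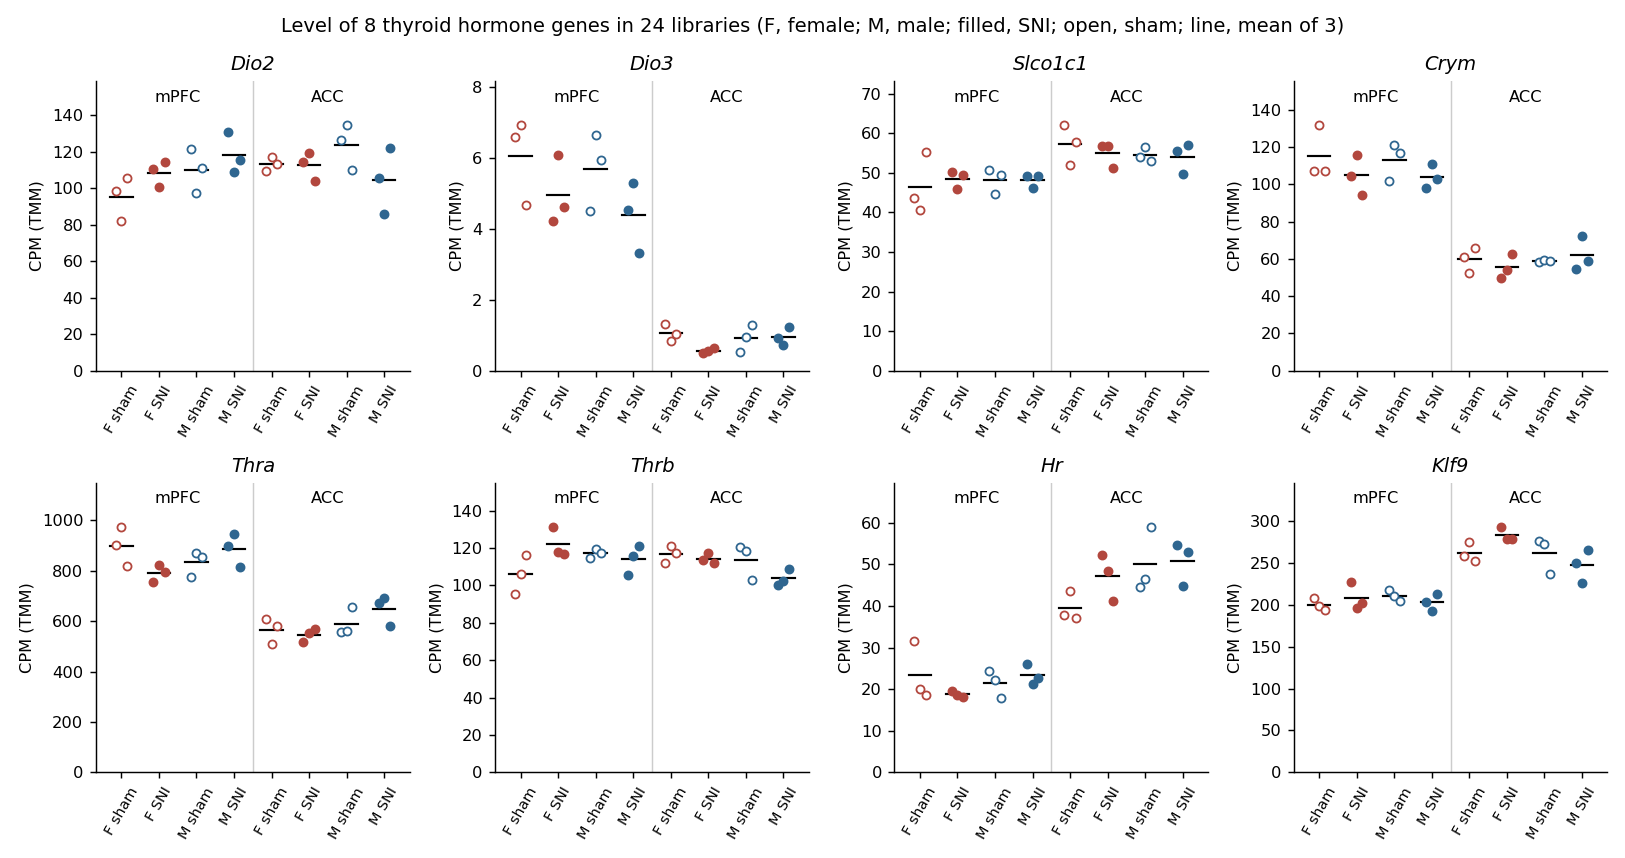
Level of each of the 8 genes (CPM, scaled with TMM factors, axes from 0) in the 24 libraries, grouped by region, sex (F, M) and treatment (open, sham; filled, SNI), with a line at the mean of 3. Dio3, Crym and Thra lie higher in all 12 mPFC libraries than in any ACC library, and Hr lower, while Dio2 and Thrb have overlapping ranges.

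Dio3, which inactivates thyroid hormones, was several times higher in the mPFC than in the ACC, while the ranges of Dio2 over the 12 libraries of each region overlapped. In the sham mPFC, Dio3 stood at 6.59, 6.92 and 4.66 CPM in females and at 4.49, 6.63 and 5.93 CPM in males. In the sham ACC it stood at 1.32, 0.847 and 1.04 CPM in females and at 0.512, 0.943 and 1.28 CPM in males. The Dio3 levels of the regions did not overlap in either sex. The log2 fold change, mPFC minus ACC, was 2.51 (SE 0.22, 5.69-fold) in sham females and 2.64 (SE 0.27, 6.25-fold) in sham males.

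Dio3 was also high in the mPFC and low in the ACC after SNI. The SNI mPFC had 4.21, 6.08 and 4.61 CPM in females and 4.52, 5.29 and 3.33 CPM in males, against 0.500, 0.548 and 0.652 CPM and 0.920, 0.730 and 1.22 CPM in the ACC. The difference was 3.14 (SE 0.22) in females and 2.19 (SE 0.23) in males on the log2 scale. These levels rest on few reads: 89 to 187 per library in the mPFC and 14 to 35 in the ACC. For the lowest ACC library the exact Poisson interval (95%) was 7.65 to 23.5 reads, which covers counting error only.

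Dio2, the activating enzyme, averaged 108 ± 12.7 CPM (SD, n = 12) in the mPFC and 114 ± 12.3 CPM in the ACC, with ranges of 81.8 to 131 and 86.0 to 135 CPM. In sham females the regions did not overlap, at 81.8 to 106 CPM in the mPFC and 110 to 117 CPM in the ACC. Of all genes tested, 37.7% did not overlap there. In sham males the regions overlapped. In sham libraries the log2 fold change was −0.24 (SE 0.09) in females and −0.16 (SE 0.09) in males. After SNI it was −0.05 (SE 0.06, adjusted p = 0.617) for females and 0.18 (SE 0.10, adjusted p = 0.279) for males, so that neither sex passed an FDR of 0.1 in edgeR's quasi-likelihood test. The male value was called with no low-count filter, and also without male SNI ACC replicate 3, where it was 0.30. Per kilobase of exon, the level of Dio2 was 4.13 to 12.1 times that of Dio3 in the mPFC (median 7.56) and 29.1 to 86.1 times in the ACC (median 44.7). Dio2 was the more abundant transcript in all 24 libraries.

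**Figure D2:**
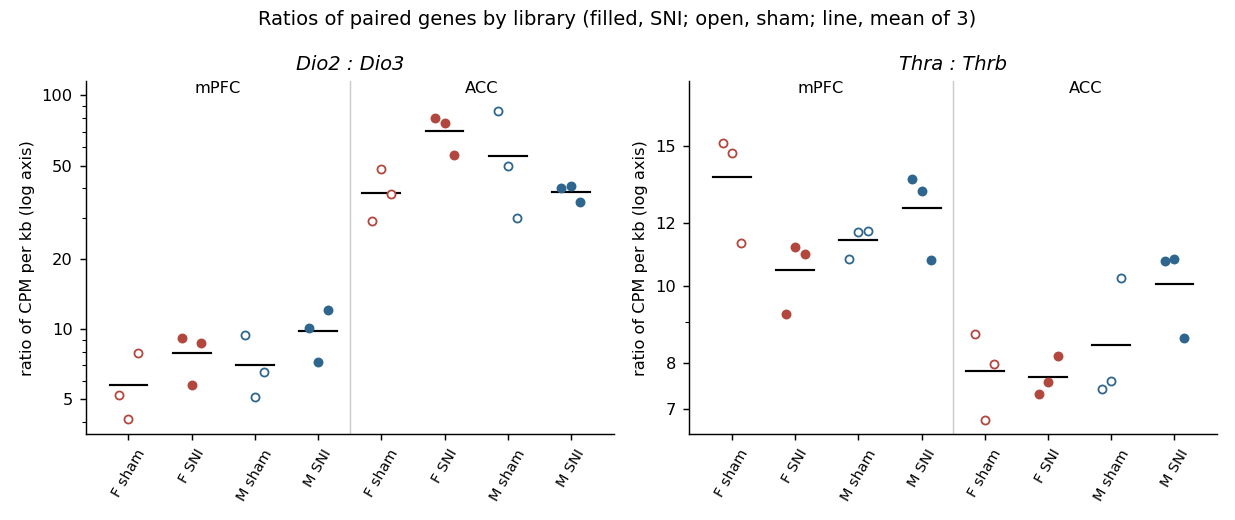
Ratio of the level per kilobase of exon of Dio2 to Dio3 (left) and of Thra to Thrb (right) in each library, on log axes, by region, sex (F, M) and treatment (open, sham; filled, SNI), with a line at the mean of 3. The Dio2 to Dio3 ratio is 4.13 to 12.1 in the mPFC and 29.1 to 86.1 in the ACC, and the Thra to Thrb ratio 9.23 to 15.2 and 6.77 to 10.8.

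After SNI, 5 of the 7 genes tested differed between the mPFC and the ACC in each sex, at an FDR under 0.1 in edgeR, beside 27.6% of all genes tested in females and 21% in males. Crym and Thra were higher in the mPFC, and Slco1c1, Hr and Klf9 were lower. The same genes were called in both sexes, and these 5 of 7 were also the members without overlap, beside 37.6% of all genes in females and 32.8% in males. The median log2 fold change of the 7 was −0.05 in females and 0.13 in males, beside 0.0033 and 0.0034 over all genes tested.

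Crym, which holds triiodothyronine in the cytosol, had the largest of the higher values among the 7 genes tested. The SNI mPFC had 104, 116 and 94.0 CPM in females and 97.8, 111 and 103 CPM in males. The SNI ACC had 49.6, 54.1 and 62.7 CPM and 54.6, 72.2 and 58.9 CPM. No mPFC library came near the ACC range, and the log2 fold change was 0.93 (SE 0.09, adjusted p = 1.69e-05) for females and 0.74 (SE 0.09, adjusted p = 0.000104) for males. In the sham libraries the difference was 0.96 (SE 0.10) for females and 0.95 (SE 0.08) for males.

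Thra was the most abundant of the 8 genes per kilobase in every library, with Klf9 next. It averaged 852 ± 67.9 CPM in the mPFC and 588 ± 58.1 CPM in the ACC (SD, n = 12). The SNI mPFC had 755, 822 and 797 CPM in females and 897, 948 and 813 CPM in males, and the SNI ACC 516, 552 and 569 CPM and 672, 691 and 581 CPM. The regions did not overlap within either sex, and the log2 fold change was 0.54 (SE 0.05, adjusted p = 1.66e-05) for females and 0.45 (SE 0.07, adjusted p = 0.00116) for males. In sham libraries it was 0.68 (SE 0.08) and 0.51 (SE 0.08), and the female sham value was 0.50 when the GC trend of each library was entered as an offset.

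Gene-level counts join the Thra transcripts that encode the receptor with the variant that does not bind hormone. Thra shares 263 exonic bases with Nr1d1, a clock repressor on the opposite strand, and the strand mode of the counting is not given in the sources used here. Nr1d1 went the other way after SNI, with log2 fold changes of −0.14 (SE 0.05, adjusted p = 0.0742) for females and −0.19 (SE 0.06, adjusted p = 0.037) for males. When 1 library was left out, its adjusted p reached 0.26 in females and 0.15 in males.

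Thrb, the other receptor gene, was at 115 ± 9.0 CPM in the mPFC and 112 ± 7.21 CPM in the ACC (SD, n = 12), and its ranges overlapped in both sexes. The log2 fold change after SNI was 0.10 (SE 0.05, adjusted p = 0.203) for females and 0.13 (SE 0.06, adjusted p = 0.15) for males. With the GC trend as an offset these were 0.14 (adjusted p = 0.0405) and 0.12 (adjusted p = 0.0995), past the threshold in both sexes. The Thra to Thrb ratio per kilobase had a median of 11.5 in the mPFC and 8.07 in the ACC.

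Hr was the gene with the largest difference in favour of the ACC. The SNI mPFC had 19.6, 18.6 and 18.1 CPM in females and 26.1, 21.3 and 22.6 CPM in males. The SNI ACC had 52.2, 48.5 and 41.2 CPM and 54.7, 44.8 and 53.0 CPM. Every mPFC library lay far below every ACC library, with log2 fold changes of −1.33 (SE 0.08, adjusted p = 7.28e-07) and −1.12 (SE 0.09, adjusted p = 7.13e-06). In sham libraries the difference was −0.74 (SE 0.16) in females and −1.20 (SE 0.13) in males. Female sham mPFC replicate 1 held 31.7 CPM of Hr, against 19.99 and 18.5 CPM in the other libraries of its group, and without it the female sham difference was −1.02.

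Klf9, a transcription factor induced by thyroid hormone and by glucocorticoids, followed Hr in direction with a smaller difference. It averaged 206 ± 10.4 CPM in the mPFC and 264 ± 19.5 CPM in the ACC (SD, n = 12), and the highest mPFC library (228 CPM, a female) was just above the lowest ACC library (226 CPM, a male). Within each sex after SNI the regions did not overlap. The log2 fold change was −0.44 (SE 0.06, adjusted p = 0.000154) for females and −0.29 (SE 0.06, adjusted p = 0.00687) for males, and −0.38 and −0.30 in the sham libraries. Of 9 other glucocorticoid-responsive genes, Tsc22d3 alone was called in females, at −0.48 (SE 0.10, adjusted p = 0.00436), beside 27.6% of all genes. Cdkn1a alone was called in males, at 0.21 (SE 0.06, adjusted p = 0.0369), beside 21% of all genes. The part of glucocorticoids in the difference of Klf9 was not tested.

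Slco1c1, the thyroxine transporter of brain capillaries and astrocytes, was slightly lower in the mPFC. After SNI the levels were 50.3, 46.0 and 49.4 CPM in the female mPFC against 56.9, 56.9 and 51.2 CPM in the ACC, and 49.2, 46.2 and 49.2 CPM in the male mPFC against 55.5, 49.7 and 57.1 CPM in the ACC. The groups were separate but close, with log2 fold changes of −0.18 (SE 0.06, adjusted p = 0.0507) and −0.17 (SE 0.06, adjusted p = 0.085). The call was lost in a single model over all 24 libraries in both sexes, with DESeq2 in males, with the GC offset in females, and without any of several single libraries.

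Cell type markers differed between the regions too. Astrocyte markers summed to 5099 to 5950 CPM in the mPFC and 5540 to 6525 CPM in the ACC, and after SNI 8 of 12 were called lower in the female mPFC and 9 of 12 in the male mPFC, beside 13.9% and 10.6% of all genes called lower. Endothelial markers summed to 368 to 467 CPM and 446 to 527 CPM, with 3 and 9 of 11 called lower. Oligodendrocyte markers were called lower for 10 of 10 in females and 8 of 10 in males. Their sums after SNI averaged 2177 CPM in the female mPFC against 3607 CPM in the ACC, and 2556 against 3521 CPM in males. In sham libraries the averages were close, at 3224 against 3165 CPM in females and 3685 against 3793 CPM in males. Inhibitory neuron markers summed to 731 to 835 CPM in the mPFC and 839 to 954 CPM in the ACC, without overlap. Singly, Gad1 (250 to 271 against 319 to 382 CPM) and Pvalb (8.91 to 15.2 against 31.0 to 44.9 CPM) were without overlap. The ranges of Gad2, Slc32a1, Sst, Vip and Lhx6 overlapped. Excitatory neuron markers summed to 5127 to 6081 CPM and 4916 to 5888 CPM. The part of any of these cell types in the difference of Slco1c1 or of any other member was not tested.

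**Figure D3:**
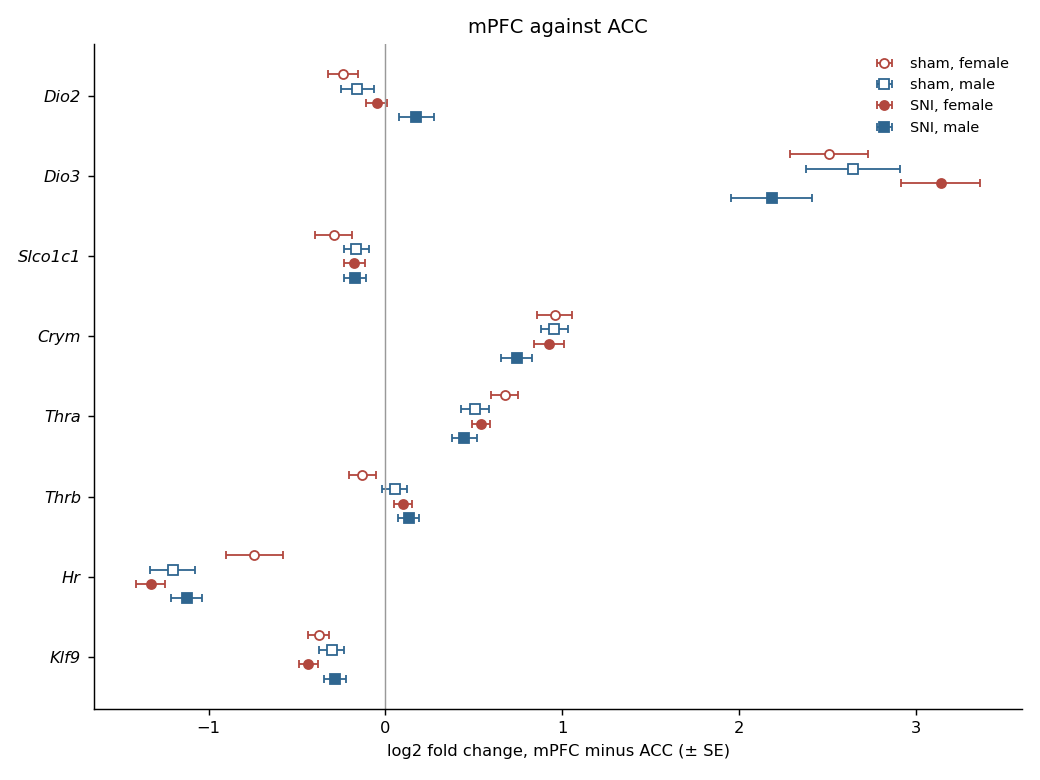
Difference between the mPFC and the ACC for each gene (log2 fold change, mPFC minus ACC, with the SE), in sham (open) and SNI (filled) libraries of females (circles) and males (squares). Dio3 lies between 2.19 and 3.14, Crym and Thra to the right of 0 and Slco1c1, Hr and Klf9 to the left of it in all 4 comparisons, while Dio2 and Thrb lie on both sides of 0.

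No member of the set passed the test for SNI against sham: edgeR called 0 of 8 at an FDR of 0.1 in either region of either sex. Of all genes tested, females had 0.00592% called in the mPFC and 0.024% in the ACC, and males 0.494% and 0.00599%. DESeq2 called none of the 8 either. At an unadjusted p under 0.05 females had 2 of 8 in the mPFC (Thra and Thrb) and 3 in the ACC (Dio3, Hr and Klf9), and males had 1 in the mPFC (Dio3) and 0 in the ACC. Of all genes tested, 12.1% and 6.67% were under that p in females and 11.2% and 4.48% in males, in the mPFC and the ACC. A fit over both sexes called 0 of 8 in each region (0.0% of all genes in both), with Dio3 and Dio2 at an unadjusted p under 0.05 in the mPFC (7.33% of all genes) and none in the ACC (5.56%). The SNI comparisons share their libraries with those between the regions.

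Dio3 was lower on average after SNI in 3 of the 4 comparisons, without passing the test in any. These comparisons use the sham libraries by which Dio3 was chosen. A choice for high values in the sham mPFC favours a fall after SNI there, so no conclusion is drawn from the mPFC values of Dio3. In the female ACC the 3 SNI libraries (15, 16 and 16 reads) lay below the 3 sham libraries (33, 21 and 28 reads). The log2 fold change was −0.92 (SE 0.29, adjusted p = 0.622), and −0.75 without female sham ACC replicate 1, the library with choroid plexus transcripts. In the mPFC it was −0.29 for females (SE 0.18, adjusted p = 0.501) and −0.37 for males (SE 0.17, adjusted p = 0.445), and in the ACC of males 0.06 (SE 0.36, adjusted p = 0.968). The sex by SNI interaction in the ACC was −0.998 (SE 0.47, adjusted p = 0.753), so that a difference between the sexes did not pass the test. Over both sexes in the mPFC Dio3 was at −0.33 (SE 0.14, adjusted p = 0.608) and Dio2 at 0.15 (SE 0.07, adjusted p = 0.664).

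In the female mPFC the receptors went in opposite directions, neither past the test. Thrb stood at 131, 118 and 117 CPM after SNI and 95.3, 106 and 116 CPM in sham libraries, which did not overlap (0.20, SE 0.08, adjusted p = 0.403). It was the only member of 8 without overlap there, beside 15.0% of all genes. Thra stood at 755, 822 and 797 CPM after SNI and 901, 974 and 821 CPM in sham libraries, which overlapped by a small margin (−0.18, SE 0.08, adjusted p = 0.406). The sex by SNI interaction in the mPFC was −0.27 for Thra (SE 0.10, adjusted p = 0.232) and 0.24 for Thrb (SE 0.10, adjusted p = 0.273). The interaction of Thra was called with DESeq2 (adjusted p = 0.0829).

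Base composition differed between the libraries of the female mPFC too, and its part in these values was not tested. GC content was 59.8% for Thra and 44.1% for Thrb, near the rich and the poor end of the 8 genes (43.1% for Slco1c1 to 61.6% for Hr). The difference between GC-rich and GC-poor genes was 0.25, 0.23 and −0.12 in the female sham mPFC and −0.19, −0.03 and −0.16 in the female SNI mPFC, so that replicate 3 of the sham group lay with the SNI libraries. With the GC trend of each library as an offset, SNI against sham was −0.04 for Thra (SE 0.05, adjusted p = 0.902) and 0.12 for Thrb (SE 0.06, adjusted p = 0.731), and the interaction of Thra was −0.04 (SE 0.06, adjusted p = 0.981).

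Single libraries decided how many members were called. Without female sham mPFC replicate 3, the SNI comparison of the female mPFC called 4 of 8 (Dio2, Thra, Thrb and Hr), beside 15.9% of all genes. Without male sham ACC replicate 3, whose GC difference was 0.31 against −0.16 and −0.12 in the others of its group, that of the male ACC called 2 of 8 (Thra and Thrb), beside 13.5% of all genes. Female sham mPFC replicate 3 also decided the sham sex comparison of the mPFC (4 of 8 without it, beside 15.5% of all genes), region by SNI in females (2 of 8, 11.6%) and sex by SNI in the mPFC (3 of 8, 18.3%). Without male sham ACC replicate 3, sex by SNI in the ACC called 1 of 8 (Klf9, 9.65%). With all libraries it was 0 of 8 in each of these 6 comparisons, both with and without the GC offset. The offset was not combined with leaving out a library, so its effect on the calls above was not tested.

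In the female ACC, Hr and Klf9 were higher on average after SNI. Hr stood at 52.2, 48.5 and 41.2 CPM against 37.7, 43.6 and 37.1 CPM in sham libraries, with overlap (0.26, SE 0.08, adjusted p = 0.628). Klf9 stood at 293, 279 and 279 CPM against 258, 275 and 252 CPM, without overlap (0.11, SE 0.04, adjusted p = 0.635). Dio3 and Klf9 were the 2 of 8 members without overlap in the female ACC, beside 11.8% of all genes. With no low-count filter Hr was called there (adjusted p = 0.000158), as were 1.38% of all genes. Over the fits that left out 1 library the adjusted p of Hr ran from 0.137 to 0.988.

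Over the 4 comparisons the log2 fold change ran from −0.06 to 0.06 for Slco1c1, from −0.14 to 0.07 for Crym, and from −0.25 to 0.19 for Dio2. Their groups overlapped in all 12 of these. No member was without overlap in males, beside 16.9% of all genes in the mPFC and 8.19% in the ACC.

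**Figure D4:**
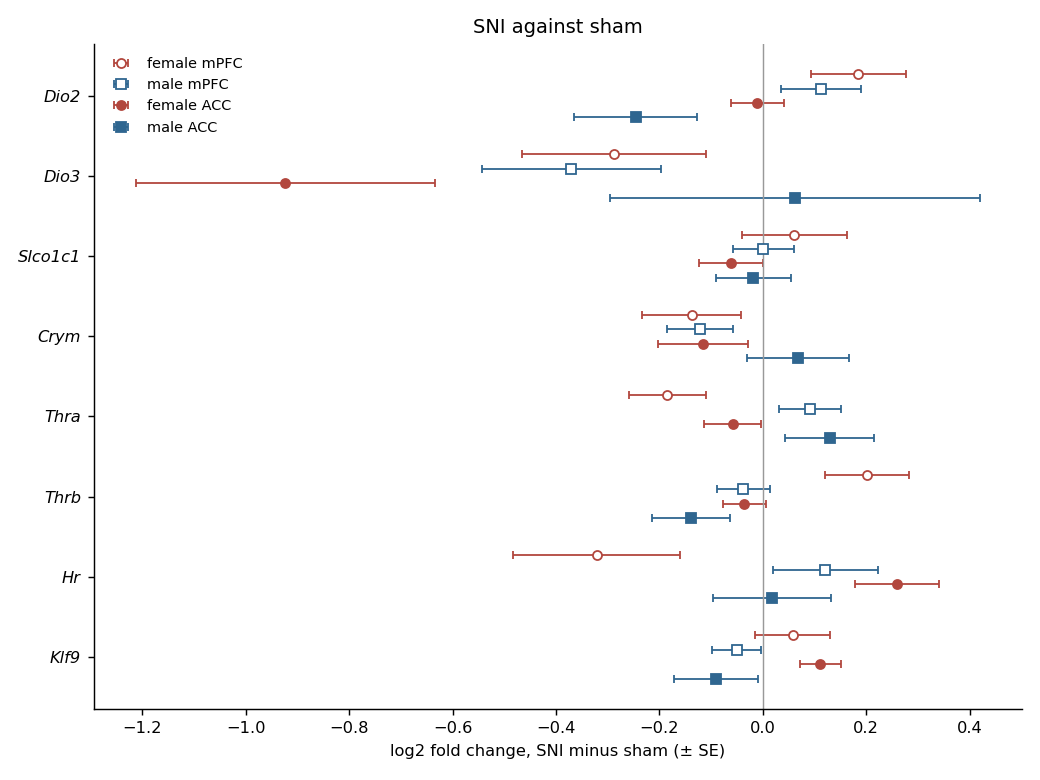
Difference between SNI and sham libraries for each gene (log2 fold change, SNI minus sham, with the SE) in the mPFC (open) and the ACC (filled) of females (circles) and males (squares). None passed an FDR of 0.1, and apart from Dio3 in the female ACC at −0.92 all values lie between −0.37 and 0.26.

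Whether the SNI difference itself depended on region or sex was tested as an interaction, and 0 of 8 members were called in any of the 4, beside 0.0% of all genes in each. Region by SNI subtracts the sham difference between the regions, by which Dio3 was chosen, so no conclusion is drawn from it for Dio3. DESeq2 called Thra for sex by SNI in the mPFC and none elsewhere. In the region by SNI interaction, Hr was at −0.58 in females (SE 0.21, adjusted p = 0.428), Thrb at 0.23 in females (SE 0.10, adjusted p = 0.43) and Dio2 at 0.34 in males (SE 0.16, adjusted p = 1). These, with Thra and Thrb for sex by SNI in the mPFC, were the values at an unadjusted p under 0.05, 5 in all. The share of all genes under that p was 11.1% in females and 3.19% in males for region by SNI, and 15.8% in the mPFC and 5.92% in the ACC for sex by SNI.

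Sham females and sham males were compared in each region, and 0 of 8 members were called by edgeR or DESeq2, beside 0.177% of all genes in the mPFC and 0.0958% in the ACC. At an unadjusted p under 0.05 there was none in the mPFC (10.6% of all genes) and 1 in the ACC (6.64%). That gene was Hr, at 37.7, 43.6 and 37.1 CPM in females and 44.5, 46.5 and 59.0 CPM in males, without overlap (−0.34, SE 0.11, adjusted p = 0.62). It was the only member of 8 without overlap there, beside 13.5% of all genes, and the mPFC had none, beside 14.7%. In the mPFC the largest difference was that of Dio2, at −0.20 (SE 0.10, adjusted p = 0.511).

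The other genes of the pathway were taken from a list of 28, of which 27 were tested. Dio1, the deiodinase of liver and kidney, was too low to test. None of the 27 was called for SNI against sham, for sex or for an interaction. Between the regions after SNI, 9 were called in females (3 higher in the mPFC and 6 lower, beside 13.7% and 13.9% of all genes in those directions) and 7 in males (2 and 5, beside 10.4% and 10.6%).

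Among 5 further transporters, Slc7a8 was higher in the mPFC and Slco1a4 lower in both sexes. Slc7a8, an amino acid transporter that also carries thyroid hormones, was at 0.40 and 0.30 (adjusted p = 0.000273 and 0.0125). Slco1a4, an organic anion transporter of the blood-brain barrier, was at −0.21 and −0.26 (adjusted p = 0.0142 and 0.0209), the direction of Slco1c1. Slc3a2, the heavy chain that partners Slc7a8, was called in females alone, at 0.13 (adjusted p = 0.0533), and the difference between the sexes was not tested. When 1 library was left out, the adjusted p reached 0.217 for Slc3a2 in females and 0.101 for Slco1a4 in males.

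Of the 3 retinoid X receptors, Rxrg was called and Rxra and Rxrb were not. Rxrg was at 8.43 ± 0.395 CPM in the female SNI mPFC against 2.88 ± 0.588 CPM in the ACC, and at 7.63 ± 0.833 against 3.03 ± 1.16 CPM in males (SD, n = 3). Its log2 fold changes of 1.56 (SE 0.15, adjusted p = 1.66e-05) and 1.32 (SE 0.20, adjusted p = 0.000706) were larger than those of any tested member in that direction. Rxrg is also expressed in striatum. Summed striatal markers were 128 to 140 CPM in the female SNI mPFC and 128 to 132 CPM in the ACC, and 130 to 149 and 134 to 154 CPM in males. Of these 7 markers 4 were called higher and 1 lower in females, beside 13.7% and 13.9% of all genes. In males 3 were called higher and 2 lower, beside 10.4% and 10.6%. The part of these markers in the difference of Rxrg was not tested.

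The 10 coregulators, which join the receptors to chromatin, had 0 of 10 called in females and 1 of 10 in males, the coactivator Ncoa3 at −0.19 (adjusted p = 0.036). Leaving out 1 library took the adjusted p of Ncoa3 to as much as 0.163. Ncor1, the corepressor of unliganded receptors, was at 0.05 in females and 0.01 in males.

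Among 8 further genes known to respond to thyroid hormone in brain or other tissues, all of those called were lower in the mPFC: Nrgn, Camk4, Rasd2, Rcan2 and Flywch2 in females, and Nrgn, Rcan2 and Flywch2 in males. Nrgn, a postsynaptic calmodulin-binding protein, was at −0.44 and −0.27 (adjusted p = 0.000128 and 0.00511), and Rcan2, a calcineurin regulator, at −0.57 and −0.41 (adjusted p = 1.95e-05 and 0.00219). Flywch2 was at −0.77 and −0.67, from group means of 1.25 to 2.40 CPM. Some of these calls were lost when 1 library was left out. The adjusted p then reached 0.174 for Camk4 in females, and 0.18 in females and 0.128 in males for Flywch2. Thrsp, Me1 and Gpd2 were not called in either sex. Over all libraries Me1 ran from 58.5 to 70.3 CPM in the mPFC and 53.2 to 64.3 CPM in the ACC. Gpd2 ran from 144 to 171 and 132 to 151 CPM, and Thrsp from 8.67 to 12.2 and 10.5 to 14.3 CPM. Of all genes tested, 13.9% were called lower in the mPFC in females and 10.6% in males.

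**Figure D5:**
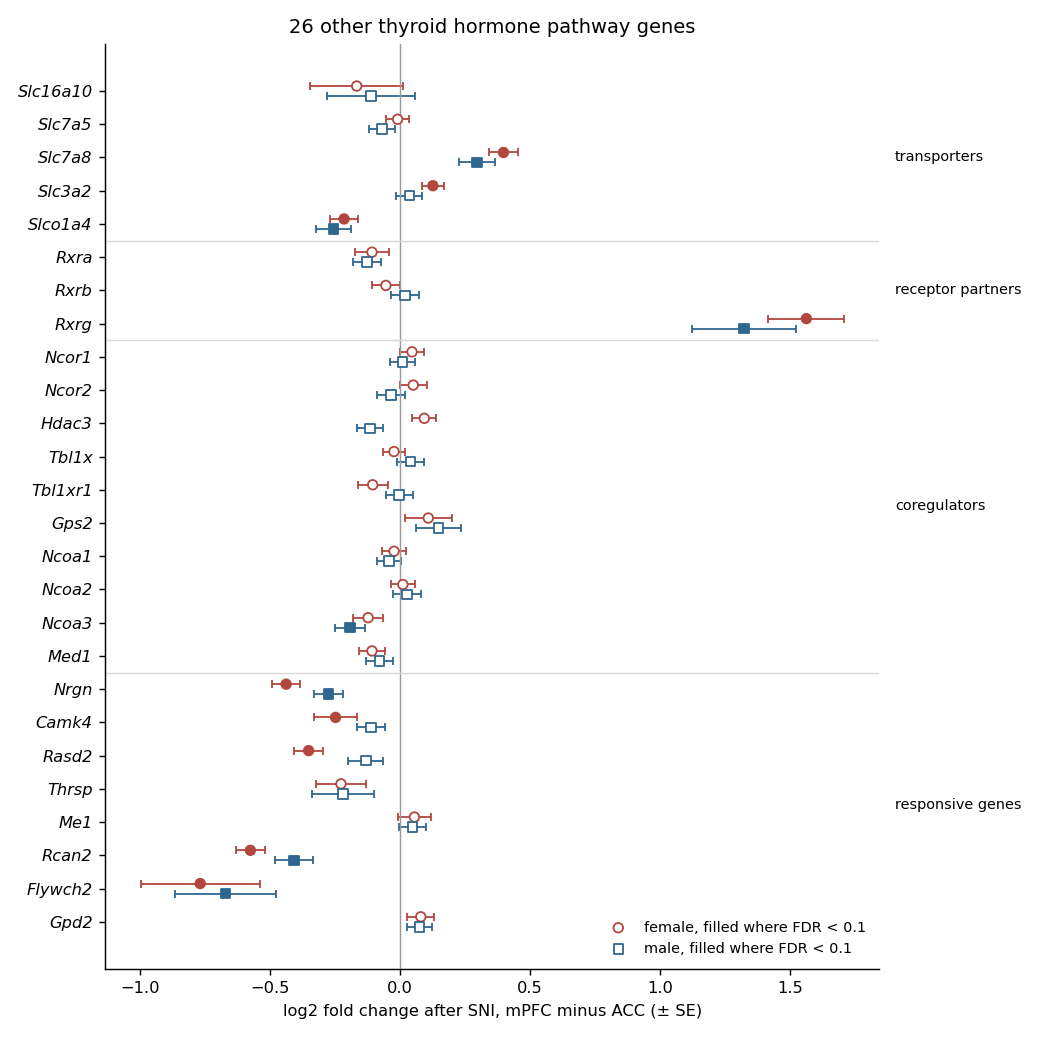
Difference between the mPFC and the ACC after SNI (log2 fold change, mPFC minus ACC, with the SE) for 26 further genes of the pathway, by group, in females (circles) and males (squares), filled where called. Rxrg at 1.56 and 1.32 lies farthest right and Flywch2 at −0.77 and −0.67 farthest left, and the coregulators lie near 0. Ttr is not drawn.

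Ttr, the thyroxine carrier made by the choroid plexus, was at 871 CPM in female sham ACC replicate 1 and at 72.5 CPM in male SNI mPFC replicate 2, and between 0.182 and 5.66 CPM in the other libraries. Ttr is 1 of the 6 choroid plexus markers summed above, and its part in other results was not tested.

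The genes most like each member over the 24 libraries were found by Pearson's r of log2(CPM + 1), among 14703 genes with a mean of at least 1 CPM. These values are descriptions, since libraries share region and base composition. Dio3 was nearest to Wdr6 (r = 0.981), Baiap3 (0.979) and Zcchc12 (0.978), and within the 12 mPFC libraries these were at 0.781, 0.734 and 0.662. Crym was nearest to Fxyd6 (0.988), Dpysl5 (0.986) and Wdr6 (0.986), so that Wdr6 was shared by Dio3 and Crym. Thra was nearest to Jph4, Ly6h and Klf16 (each 0.988) and Hr was close to Cplx1 (0.992) and Scrt1 (0.989). Klf9 was nearest to Ghitm (0.978), Camta1 (0.978) and Btbd8 (0.974).

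Thrb was nearest to Map9 (0.913 over all libraries, 0.963 within the mPFC and 0.937 within the ACC), Fzd3 (0.912) and G3bp2 (0.904). Dio2 was nearest to Utp14b (0.802), the activity-regulated scaffold gene Homer1 (0.788) and Dleu2 (0.787), and Slco1c1 to Serp1 (0.858), Rhoq (0.848) and Erap1 (0.846), which for Slco1c1 were at 0.715, 0.549 and 0.535 within the ACC.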

How the data were processed

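The authors deposited whole-number read counts per gene, 1 table for each sex and region, made with Trimmomatic 0.36, Bowtie2 (removal of Rfam reads), HISAT2 2.1.0 and HTSeq 0.9.1 on GRCm38, per the submitters' processing notes and methods. Libraries are named by treatment and number, and sex and region come from the table. Symbols, positions, exon lengths and GC content (longest transcript) come from GENCODE mouse release 21.

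Each comparison used its own libraries in edgeR 4.0.16 (R 4.3.3): filterByExpr (count of 10, total of 15), TMM, the quasi-likelihood F-test with the legacy setting, and an FDR under 0.1 (Benjamini-Hochberg) over all genes tested. The SE is the absolute log2 fold change over the root of F. Members, gene lists and comparisons were chosen with earlier results of these data known. The genes named are the members, called genes of the pathway list, overlapping genes, the 3 nearest genes by correlation and list markers, and some genes are not reported here. Alternatives were DESeq2 1.42.0, RLE factors, other filters, the current quasi-likelihood method, 1 model over 24 libraries, the replicate number as a block, each library left out and, chosen after the data were seen, a GC offset (a lowess trend per library). The steps were tested on simulated data.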

Additional observations from a re-analysis of the deposited data

How the results depend on the processing

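Counts of called genes were recomputed under each alternative. Between the regions after SNI, members called ran from 4 to 7 and pathway genes from 6 to 11, and Crym, Thra, Hr and Klf9 were called in all 14 alternatives in both sexes. Of the comparisons with 0 members called, no low-count filter gave 1 for SNI in the female mPFC, SNI in the female ACC, SNI over both sexes in the mPFC and both region by SNI interactions, and 2 for sex by SNI in the mPFC, where DESeq2 gave 1. Of those with 0 pathway genes called, no filter gave 1 for SNI in the female ACC, for SNI over both sexes in either region, for region by SNI in males and for sex by SNI in the ACC, 2 for SNI in the male mPFC and region by SNI in females, and 3 for sham sex in the ACC and sex by SNI in the mPFC. DESeq2 gave 1 for SNI in the male mPFC and 2 for sham sex in the ACC and sex by SNI in the mPFC, the model over 24 libraries gave 2 for sham sex in the ACC, and the GC offset gave 1 for sham sex in each region. The cause was not tested. Whether same-numbered libraries share mice is not given in the sources used here. Their deviations had r of −0.098 to 0.19 between the mPFC and the ACC of the same sex, treatment and number, over 0.1 in 1 of 12 pairs. Between sham and SNI libraries r was −0.30 to 0.22, and between females and males −0.23 to 0.24. Same-numbered libraries were treated as unpaired. The replicate block moved the genes called for SNI in the male mPFC from 84 to 745 of all tested and those over both sexes in the mPFC from 0 to 43, gave 2 pathway genes for SNI in the male mPFC and 1 for SNI in the female ACC and for sham sex in the ACC, and moved the members called from 5 to 7 between the regions in males, with Dio2 (0.18) and Thrb (0.13).

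With 1 library left out, members called ran from 0 to 4 for SNI in the female mPFC and sham sex in the mPFC, 0 to 2 for SNI in the male ACC and region by SNI in females, 0 to 3 for sex by SNI in the mPFC and 0 to 1 for sex by SNI in the ACC. Pathway genes ran from 0 to 6 for SNI in the female mPFC, 0 to 1 for SNI in the male mPFC, 0 to 1 for SNI in the female ACC and sham sex in the ACC, 0 to 3 for SNI in the male ACC, 0 to 5 for sham sex in the mPFC and 0 to 7 for region by SNI in females and sex by SNI in the mPFC. The highest counts came without female sham mPFC replicate 3 in the mPFC and in the female interaction, and without male sham ACC replicate 3 in the male ACC and in the ACC interaction. Dio3 in the male ACC ran from −0.23 to 0.40 with 1 library left out and changed sign without male sham ACC replicate 1 (−0.23), without male SNI ACC replicate 3 (−0.15) and with the GC offset (−0.0051), and Dio2 between the regions in SNI females, which ran from −0.11 to 0.0008, without female SNI mPFC replicate 2. In sham females the regional difference moved to −1.02 for Hr and −0.43 for Slco1c1 without 1 library, and with the GC offset to −0.15 for Slco1c1, 0.50 for Thra and −0.011 for Thrb. Dio3 in the ACC rests on 14 to 35 reads per library.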
